A study of Mus musculus with 3 samples.

Results

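A set of 5 genes that carry small nucleolar RNAs (snoRNAs) within them was examined by the small RNA reads that fell on them: Rabggtb, Rps3, Eif4a2, Ncl and Gas5. Each was taken as a 10 kb window that overlaps the gene, so some snoRNAs of a gene may lie outside its window. Windows are in the coordinates of the deposited read files, which use the chromosome names of the mm9 assembly. The 5 windows were named in advance, with their read levels known, and are 5 of the 119251 windows of this size that held a read in any library. They are chromosome 3 from 153570001 to 153580000 (Rabggtb), chromosome 7 from 106630001 to 106640000 (Rps3), chromosome 16 from 23100001 to 23110000 (Eif4a2), chromosome 1 from 88240001 to 88250000 (Ncl) and chromosome 1 from 162960001 to 162970000 (Gas5).

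There were 3 libraries, 1 per group. The MEL library was an immunoprecipitate with a rabbit polyclonal antibody against MIWI2 (PIWIL4), a protein of the PIWI family that binds piRNAs, from MEL cells, an established line of early mouse erythroblasts transformed by Friend virus. The spleen library was an immunoprecipitate with the same antibody from splenocytes of 10-week-old C57Bl6/J mice, and so from a mixture of cell types. The testis library came from mice of the same strain and age with no antibody: the 29 nt band of small RNA was cut from an 18% gel. The libraries held 823452 (MEL), 692011 (spleen) and 1143785 (testis) mapped reads, and values are given as reads per 1000000 reads of the library (RPM). With 1 library per group no difference has a replicate check, no p-value is given, and all 95% intervals cover counting error only. Neither input RNA nor a control antibody was analysed here, so a read in an immunoprecipitate need not come from RNA bound to MIWI2. The labelled tissues were not checked here against cell type markers, and in bulk samples fewer cells of a type and less RNA per cell cannot be told apart.

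As background, most vertebrate snoRNAs are cut out of the spliced introns of host genes. Box C/D snoRNAs guide methylation of ribose in ribosomal RNA and carry a C box near the 5′ end and a D box near the 3′ end. Box H/ACA snoRNAs guide the conversion of uridine to pseudouridine. Host genes are often genes of the translation machinery, and short fragments of snoRNAs are common in small RNA libraries, some of them bound to Argonaute proteins. Rabggtb is the beta subunit of the enzyme that attaches geranylgeranyl groups to Rab proteins, Rps3 is a protein of the small ribosomal subunit, Eif4a2 is an RNA helicase of translation initiation, Ncl is nucleolin, and Gas5 is a long non-coding RNA.

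GENCODE release M21, which is on GRCm38 and not on the build of the reads, lists 23 snoRNA genes inside these 5 host genes: 3 in Rabggtb, 2 in Rps3, 5 in Eif4a2, 3 in Ncl and 10 in Gas5, where Snord80 is listed 2 times. Of the 23, 18 had a C box core (TGATG) in the first 20 bases and a D box (CTGA) in the last 20, on the strand of the snoRNA. The share was 74.45% of the 454 GENCODE snoRNA transcripts of 60 to 100 nt and 0.81% of the 866 of 120 to 150 nt. The 5 without both boxes were Gm24201, Snora81, Gm26447 and Gm24616 in Eif4a2 and Snora75 in Ncl. Snord45c in Rabggtb overlaps an exon of a coding transcript in GENCODE. The 3 snoRNAs of Rabggtb and 4 of those of Gas5 are printed here. The spacing of the read sites, described further on, matched theirs except for Snord45b, which is shown beside the other members of its family because its place had few reads. They are the GENCODE transcripts as DNA letters, 5′ to 3′, with capitals on the C box core, extended to TGATGA where those letters were found, and on the D box.
Snord45b: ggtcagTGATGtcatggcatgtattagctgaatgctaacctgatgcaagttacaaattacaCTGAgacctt
Gm24494: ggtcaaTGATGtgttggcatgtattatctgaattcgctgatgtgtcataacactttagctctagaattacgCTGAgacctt
Snord45c: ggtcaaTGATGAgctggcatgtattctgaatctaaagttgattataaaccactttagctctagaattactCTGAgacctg
Gm23212: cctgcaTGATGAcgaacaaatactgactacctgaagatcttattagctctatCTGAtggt
Snord78: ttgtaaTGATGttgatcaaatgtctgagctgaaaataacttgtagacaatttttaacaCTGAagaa
Snord80: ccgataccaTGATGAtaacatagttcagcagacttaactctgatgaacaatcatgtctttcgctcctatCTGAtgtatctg
Snord47: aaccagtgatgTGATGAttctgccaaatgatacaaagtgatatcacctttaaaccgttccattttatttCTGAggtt

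Of the 5 windows 4 were high in MEL and far lower in spleen and testis, while Gas5 was higher in spleen, against the description of the set as high in MEL. The Rabggtb window held 19396 reads in MEL, 130 in spleen and 42 in testis, or 23554.5, 187.9 and 36.72 RPM. The Rps3 window held 12562, 4 and 3 reads, or 15255.3, 5.78 and 2.62 RPM. Eif4a2 had 8878, 31 and 6 reads, or 10781.4, 44.8 and 5.25 RPM. Ncl followed at a lower level, with 2151, 11 and 2 reads, or 2612.0, 15.9 and 1.75 RPM. In each of these 4 windows the MEL interval lay above those of both other libraries. Gas5 departed from this order. Its window held 240 reads in MEL, 837 in spleen and 9 in testis, or 291.5 RPM (255.7 to 330.8), 1210.0 RPM (1129.0 to 1294.0) and 7.87 RPM (3.60 to 14.94).

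**Figure D1:**
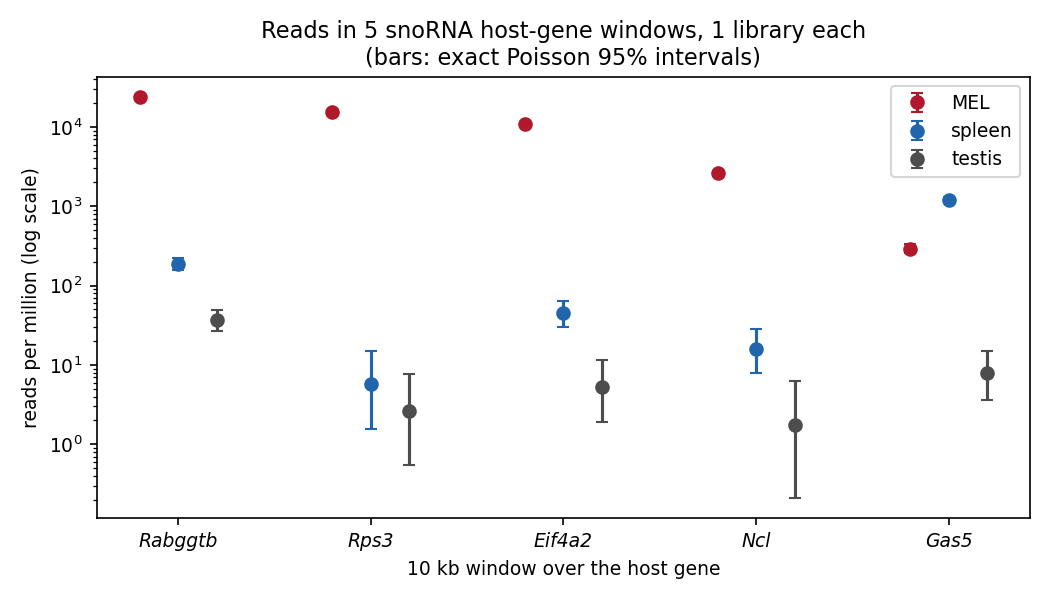
Read level in RPM (log axis) in the 5 host-gene windows, 1 point per library, with exact Poisson 95% intervals. MEL lies above spleen and testis in 4 windows, from 2612.0 to 23554.5 RPM, and spleen lies above MEL in Gas5, at 1210.0 against 291.5 RPM.

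The windows were chosen on these levels, so the folds describe them and test nothing. MEL exceeded spleen by 125.4-fold (105.5 to 150.2) in Rabggtb, 240.7-fold (169.4 to 354.4) in Eif4a2 and 164.3-fold (91.66 to 329.7) in Ncl. For Rps3, with only 4 spleen reads, the ratio was 2639 with an interval from 1031 to 9688. These folds depended on the window and on the reads counted. With the windows widened by 5 kb on each side they were 13.61 in Ncl, 109.9 in Eif4a2 and 755.7 in Rps3, and 125.4 as before in Rabggtb. Over reads of 24 to 32 nt, scaled to reads of that length, they were 32.3 in Rabggtb, 60.71 in Eif4a2 and 21.49 in Ncl. In Rps3, with 1 spleen read of that length, the fold was at least 655.5, against a floor of 3 reads. Counting each distinct interval once left 3.19 in Rabggtb, 10.36 in Rps3, 6.17 in Eif4a2 and 10.26 in Ncl. In Gas5 spleen exceeded MEL by 4.15-fold (3.59 to 4.81), by 10.13-fold over reads of at least 18 nt, by 17.35-fold over reads of 24 to 32 nt and by 1.88-fold over distinct intervals. The ratio of MEL to testis was 641.5 in Rabggtb, 5816 in Rps3, 2055 in Eif4a2, 1494 in Ncl (2 testis reads, interval 413.0 to 12343.4) and 37.04 in Gas5. The testis library was cut from a gel by size, so these ratios compare libraries prepared in different ways. How far the size selection changed the testis counts in these windows was not tested. By a call of at least 100 RPM in MEL and at least 4-fold over spleen, 4 of the 5 windows were called, where 0.437% of all windows with a read were. Against testis 5 of 5 were called, where 0.633% of all windows were. The reverse call, higher in spleen than in MEL, took 0.394% of all windows and 1 of the 5, Gas5. Called higher in spleen than in testis were 2 of the 5, Rabggtb and Gas5, against 0.685% of all windows.

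Together the 5 windows held 5.25% of the MEL reads, and Gas5 contributed 240 of these 43227 reads. Summed over the 5 windows, MEL had 52494.9 RPM, spleen 1464 and testis 54.21, so MEL was 35.86-fold above spleen. Gas5 set most of the spleen level: without it, a choice made after its values were seen, MEL was 205.3-fold above spleen (177.0 to 239.4). Read length differed between the libraries: reads shorter than 18 nt made up 73.19% of spleen, 34.3% of MEL and 0.86% of testis. Scaled to reads of 24 to 32 nt only, the fold over spleen was 13.12 for the 5 windows and 49.47 without Gas5.

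The reads of each window sat in a few stacks. A read site was defined as a run of left ends with at least 10 reads each and at most 3 nt apart, counted by the left end since the files give no strand. MEL had 10 sites in the 5 windows, which held 99.51% (99.44 to 99.58) of the 43227 reads. Sites whose left ends lay at most 100 nt apart were taken as 1 group, and the 10 sites formed 8 groups. Rabggtb had 2 groups, Rps3, Eif4a2 and Ncl had 1 each, and Gas5 had 3. The stretch covered by at least 10 reads was 25 to 44 nt wide in these groups, where the snoRNAs GENCODE lists in the 5 genes are 60 to 178 nt long. Sharp stacks are usual among strongly read MEL windows: among all 905 windows that reached 100 RPM in MEL, 91.49% had at most 2 groups. The median share of reads on the most-read site was 95.52% over these 905 windows and 89.96% over the 5.

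**Figure D2:**
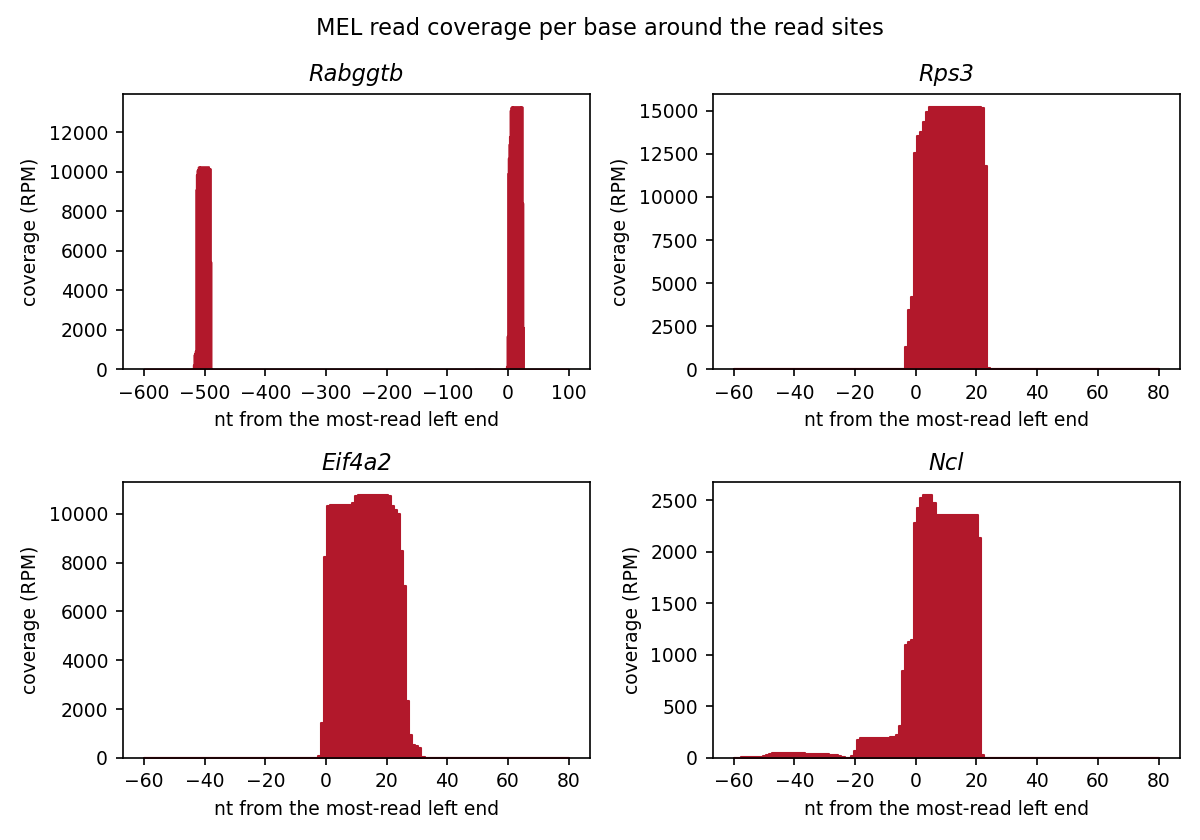
MEL coverage per base in RPM (y axis) against distance in nt from the most-read left end (x axis) for 4 windows, each panel with its own scale from 0. Rabggtb shows 2 blocks 514 nt apart, and the other 3 windows show 1 block each, with a step to the left of the main block in Ncl.

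Rabggtb, the second most-read of the 905 windows, had 2 sites of similar height in MEL. The one with more reads had left ends from 153575142 to 153575151, with 10928 MEL reads (13271 RPM), 118 in spleen (170.5 RPM) and 42 in testis (36.72 RPM). The other had left ends from 153574626 to 153574634, with 8419 MEL reads (10224 RPM), 1 in spleen and 0 in testis. The pair of sites was thus read almost equally in MEL and almost wholly at 1 site in spleen and testis. The site with fewer reads took 43.52% (42.82 to 44.22) of the reads of the pair in MEL, 0.84% (0.02 to 4.59) in spleen and 0 of 42 (up to 8.41%) in testis. MEL exceeded spleen by 77.83-fold (64.92 to 94.12) at the first site, and at the other the ratio was 7075 (1270 to 279486), with 1 spleen read. Scaled to reads of at least 18 nt, the ratios were 31.74 and 2887.

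The 2 Rabggtb sites had similar read lengths and the same spacing as a pair of annotated snoRNAs. The most frequent length was 25 nt at both, followed by 24 nt, and the most-read intervals were chr3:153575144-153575168 with 3251 MEL reads and chr3:153574630-153574654 with 3488. Their most-read right ends lay 514 nt apart. In GENCODE the right ends of Gm24494 and Snord45c, in genome coordinates, also lie 514 nt apart, and that of Snord45b lies a further 1057 nt to the left of Gm24494. At that distance from the left-hand site, within 10 nt, ended 9 reads in MEL, 8 in spleen and 0 in testis, most often at 1058 nt. Distances alone were compared, and no position was moved between the builds. By spacing the strong MEL sites thus matched Gm24494 and Snord45c, and the place of Snord45b had few reads in any library. Gm24494 and Snord45c share a stretch of at most 20 nt, and 97.73% of the MEL reads in the 2 sites were longer than that.

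The end with the larger share of reads on its most-read position differed between sites. The left end had it at both Rabggtb sites and the main Eif4a2 site. The right end had it at the Rps3 site, the main Ncl site and the smaller Eif4a2 site. By range, compared only in Rabggtb, the right ends spanned fewer bases than the left ends, though the most-read left end held the larger share. MEL coverage at the left-hand site rose from 5 reads at -519 nt to 8439 at -506 nt. Most of this rise lay between -515 nt, with 757, and -514 nt, with 7479. Coverage fell from 8439 at -494 nt to 2 at -489 nt. At the other site it rose from 11 at -3 nt to 10942 at 9 nt. Most of that rise lay between -1 nt, with 1375, and 0 nt, with 8151. There coverage fell from 10942 at 19 nt to 0 at 26 nt. Distances are from the most-read left end of that other site. At the 2 Rabggtb sites 62.01% and 79.84% of the MEL reads shared the most-read left end, against 47.32% and 52.87% for the most-read right end. The Rps3 site, with left ends from 106631416 to 106631424, had 54.82% of its 12536 MEL reads on the left end 106631419 and 76.94% on the right end 106631442. At the main Ncl site 48.17% of 1935 reads shared the left end 88248641 and 89.41% the right end 88248662, while at its smaller site the shares were close, at 57.79% and 55.84%. The main Eif4a2 site had 65.86% on its most-read left end and 45.79% on the right one, and the smaller one had 71.17% and 83.18%. In GENCODE Rabggtb, Rps3 and Ncl lie on the minus strand and Eif4a2 on the plus strand. The strand of the reads is not given, so which end is the 5′ end is unknown.

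Rps3 had a single site, the fourth most-read window of the 905. It held 99.79% (99.70 to 99.86) of the MEL reads of the window. The most frequent length was 24 nt (42.08% of the site), followed by 23 and 26 nt, and the most-read interval was chr7:106631419-106631442 with 5153 MEL reads. The few reads elsewhere partly shared that end: 1 of 4 spleen reads and 2 of 3 testis reads began at 106631419. GENCODE lists Snord15a and Snord15b in Rps3, 148 and 145 nt long, and with 1 site there is no spacing to tell which of them was read. They share at most 21 nt, and 89.96% of the MEL reads at the site were longer.

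Eif4a2 had the longest reads of the 5 windows in MEL. Of its MEL reads 90.2% (89.56 to 90.81) were 24 to 32 nt long, with a most frequent length of 27 nt. The main site had left ends from 23109050 to 23109053 and held 8508 reads in MEL (10332.1 RPM), 31 in spleen (44.8 RPM) and 0 in testis. The most-read interval there, chr16:23109052-23109078, had 2659 MEL reads and 9 spleen reads, and all 31 spleen reads of the window began at this site. A second site began about 10 nt to the right, with left ends from 23109061 to 23109063. It held 333 MEL reads of most often 22 nt, of which 97.0% were 18 to 23 nt long, while 93.7% of the main site were 24 to 32 nt. In spleen 0 reads began there, so MEL was at least 93.28-fold higher against a floor of 3 reads, and 5 of the 6 testis reads of the window did. The 6 testis reads are too few to compare the libraries by their ends.

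Ncl held 2 overlapping sites with different read lengths. The main one, with left ends from 88248635 to 88248644, had 1935 MEL reads, 1 spleen read and 0 testis reads. Its reads ended mostly at 1 right end and began at several left ends, and the most-read interval was chr1:88248641-88248662 with 878 MEL reads. The smaller site to its left, from 88248620 to 88248623, had 154 MEL reads, of which 99.35% were 24 to 32 nt, against 39.28% at the main site. Over the whole window the MEL reads had a maximum at 22 nt (41.14%) and a second one at 26 nt (21.29%). The 11 spleen reads lay mostly elsewhere in the window: 1 began in a MEL site. GENCODE lists Snora75, Gm24148 and Snord82 in Ncl, and the window held 1 group of sites, which gives no spacing. A spleen site of 109 reads lay outside the window, to its right, at the left end 88252883, and was compared after its reads were seen. Its most-read right end lay 4240 nt from that of the main MEL site, where the right ends of Gm24148 and Snord82 lie 4243 nt apart in GENCODE. By left ends the distances were 4242 and 4253 nt, just past the tolerance of 10 nt, and the other pairs of Ncl snoRNAs differed by at least 789 nt. This single distance, from sites of different libraries, is a description.

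**Figure D3:**
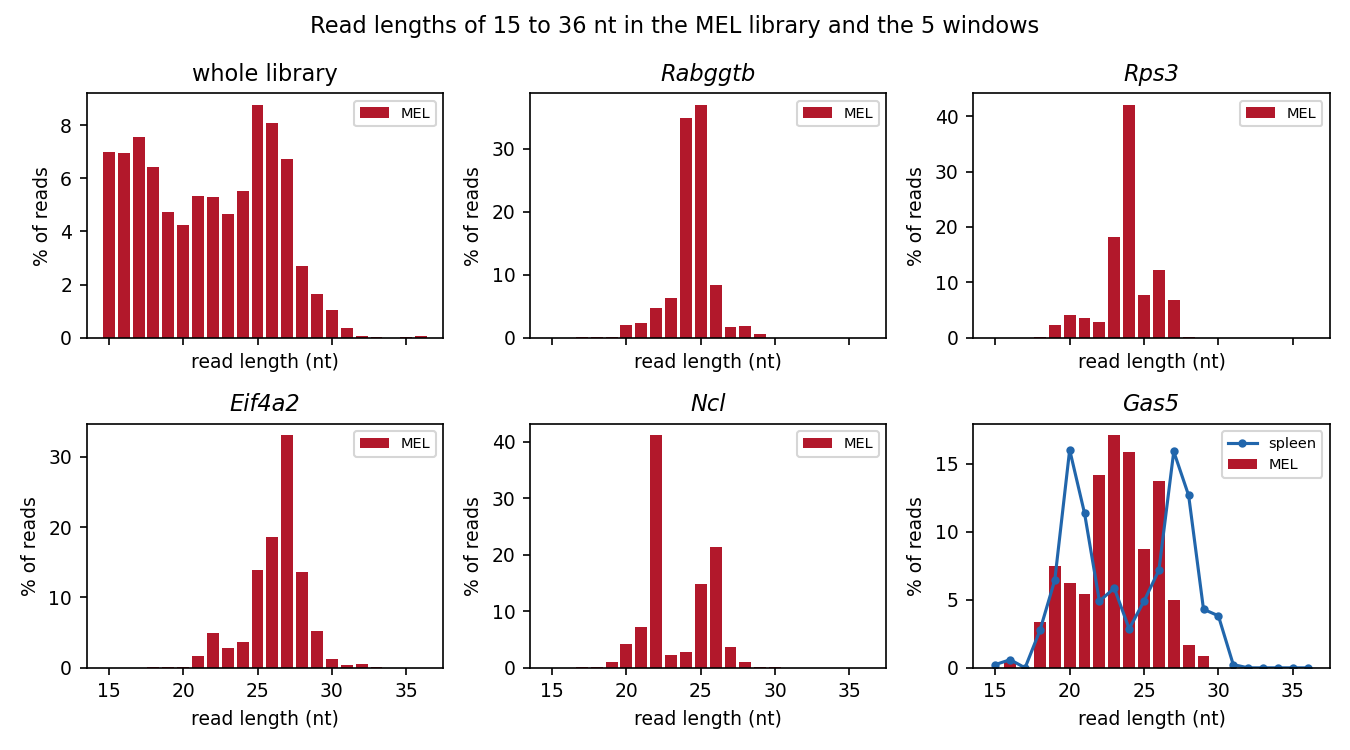
Share of reads in percent (y axis) by read length from 15 to 36 nt (x axis) in the whole MEL library and in the 5 windows, with the Gas5 window of spleen as a line. The most frequent MEL length is 25 nt in Rabggtb, 24 nt in Rps3, 27 nt in Eif4a2, 22 nt in Ncl and 23 nt in Gas5, and the spleen reads of Gas5 have maxima at 20 and 27 nt.

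The lengths set these windows apart from most strongly read MEL windows as a description. The share of reads of 24 to 32 nt in MEL was 84.2% (83.68 to 84.71) in Rabggtb, 68.83% (68.02 to 69.64) in Rps3, 90.2% in Eif4a2, 43.93% (41.82 to 46.06) in Ncl and 45.83% (39.41 to 52.36) in Gas5. The median over the 5 was 68.83%, against 0.0% over the 905 strongly read windows, many of which held only reads of other lengths. Eif4a2 ranked 25 of 905 by this share, Rabggtb 81 and Ncl 272. The whole MEL library had 34.9% of its reads in this range, with maxima at 17 and 25 nt. In all 5 windows the most frequent MEL length was 22 to 27 nt, as it was in 34.92% of the 905.

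Gas5 held reads at many sites, and its sites differed in direction between MEL and spleen. Counting every place that was a site in MEL or spleen, the window had 9 sites, of which 2 were higher in MEL and 7 in spleen. For 1 of the 7, at 162968443 with 5 MEL and 11 spleen reads, the interval of the ratio included 1 (0.84 to 9.61). The site from 162966813 to 162966817 was read in both, with 54 reads in MEL (65.58 RPM) and 296 in spleen (427.7 RPM), so spleen was 6.52-fold above MEL (4.87 to 8.89). The site from 162968212 to 162968214 was read in spleen, with 291 reads (420.5 RPM), and had 1 MEL read, a ratio of 346.3 (61.66 to 13723.4). The site from 162967115 to 162967119 went the other way, with 109 reads in MEL (132.4 RPM) and 0 in spleen. These made up 45.42% (39.0 to 51.95) of the MEL reads of the window, and the 0 of 837 spleen reads have an exact 95% upper limit of 0.44% (3 reads would be 0.358%). MEL was there at least 30.53-fold higher, against a floor of 3 reads. The site at 162967736 had 41 reads in MEL (49.79 RPM) and 8 in spleen (11.56 RPM), so MEL was 4.31-fold higher (1.99 to 10.64). Scaled to reads of at least 18 nt, these sites were at least 12.46-fold and 1.76-fold higher in MEL. The same number of sites, 2 of 9, was higher there. No interval was computed at this scaling, and the 1.76-fold rests on 41 and 8 reads, so its direction is uncertain.

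The Gas5 sites followed the spacing of its annotated snoRNAs. Measured from the spleen site at 162968213, set at Snord47, the left ends of other sites lay at the distances at which 6 of the 8 other named snoRNAs start from Snord47, each within 10 nt. With any other snoRNA of Gas5 set at that site, at most 1 distance matched. The sites lay 1399 nt away in spleen and 1400 nt in MEL where Gm23212 starts 1400 nt from Snord47, 1094 nt where Snord78 starts 1098 nt away, and 477 nt where one listing of Snord80 starts 478 nt away. The other listing of Snord80, whose sequence is printed above, starts 481 nt away. Further matches were 2232 nt for Gm22489, 2681 against 2688 nt for Gm26224, and 230 against 226 nt for Gm25789. Gm22357 and Mir5117, which GENCODE lists as a snoRNA gene in spite of its name, had no site at their distances. By this spacing the 1 site that held at least 10 reads in both libraries matched Gm23212, and the main site of MEL, unread in spleen, matched Snord78. The site matching Snord80 had 41 MEL and 8 spleen reads, and that matching the start of Gm25789 had 5 and 11. Those matching Gm22489, Gm26224 and Snord47 had at most 2 MEL reads each.

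**Figure D4:**
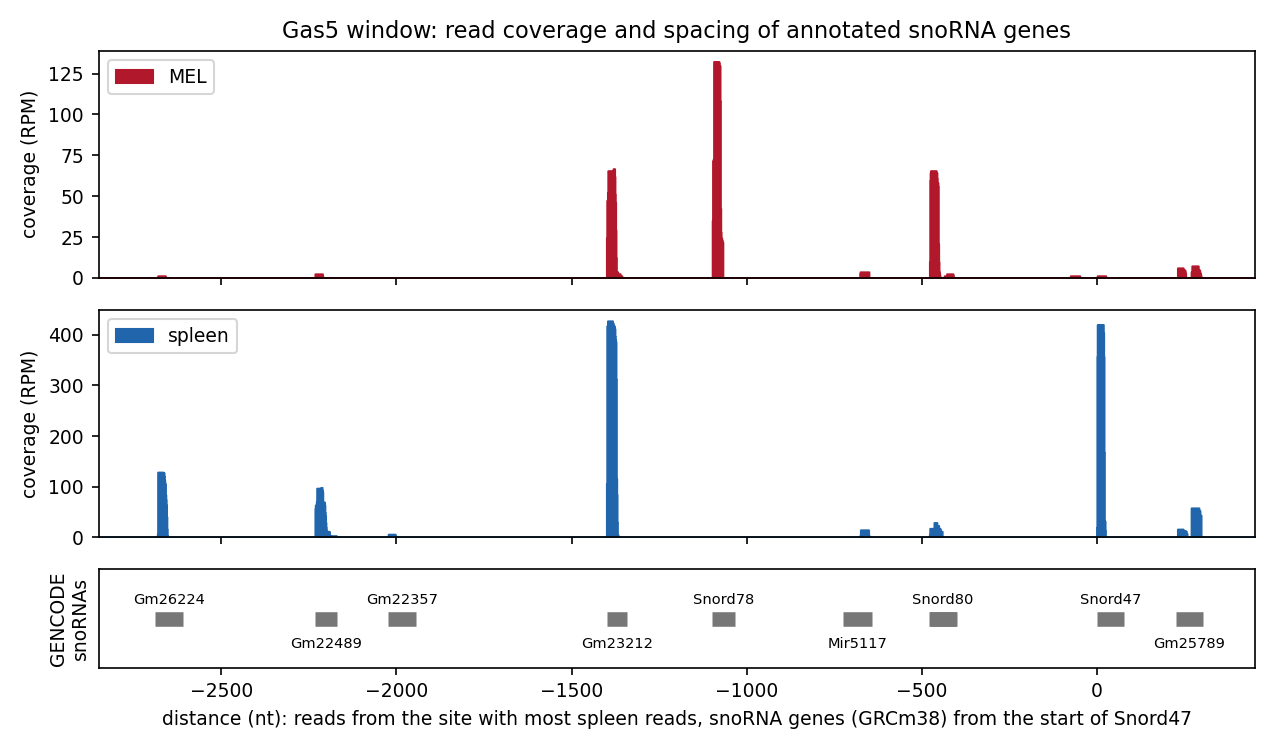
Read coverage in RPM (y axes, different scales) over the Gas5 window in MEL and spleen, by distance in nt from the spleen site set at Snord47, above the snoRNA genes of Gas5 in GENCODE by distance from the start of Snord47. The 2 zero points were set together, so the plot shows spacing and not position. MEL peaks at the spacing of Gm23212, Snord78 and Snord80. Spleen peaks at that of Gm26224, Gm22489, Gm23212 and Snord47, and also within that of Gm25789.

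Read length differed between the Gas5 sites and between the libraries at the same site. At the site spaced as Snord47 the spleen reads were most often 20 nt long and 0.69% were 24 to 32 nt. At the site spaced as Gm23212 they were most often 27 nt long and 94.59% (91.37 to 96.88) were 24 to 32 nt. The 54 MEL reads at that site were shorter, most often 23 nt, with 62.96% (48.74 to 75.71) of 24 to 32 nt. The MEL reads at the site spaced as Snord78 were shorter still, most often 22 nt, with 20.18% (13.1 to 28.95) in that range. A spleen group in Gas5 spaced as Gm25789, named after its values were seen, had a site at each side, at 162968443 with 11 reads and at 162968482 with 40 reads. Together they spanned 67 nt, of which 44 nt were covered by at least 10 reads, where Gm25789 is 76 nt long.

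Where spleen and testis had reads in the other 4 windows, most of them began in the MEL sites. In spleen 152 of 176 reads did (86.36%, 80.39 to 91.06), and in testis 49 of 53 (92.45%, 81.79 to 97.91). The Rabggtb site on which most of these lie gave 118 of the 152 and 42 of the 49. By window, the spleen reads that did were 119 of 130 in Rabggtb and 31 of 31 in Eif4a2. They were only 1 of 4 in Rps3 and 1 of 11 in Ncl. For testis the counts were 42 of 42 in Rabggtb, 5 of 6 in Eif4a2, 2 of 3 in Rps3 and 0 of 2 in Ncl. In Gas5 the share was 36.32% (33.06 to 39.68) in spleen, with 837 reads, and 1 of 9 reads in testis. At the shared Rabggtb site the most frequent length was 25 nt in MEL and spleen and 24 nt in testis. The share of 24 to 32 nt there was lower in MEL, at 78.36% (77.57 to 79.13). It was 93.22% (87.08 to 97.03) in spleen and 97.62% (87.43 to 99.94) in testis. The testis library was cut from a gel by size, and 93.64% of all its reads were 24 to 32 nt long. Its read lengths at this site therefore cannot be compared with those of MEL. The 3 most-read intervals of Rabggtb, Rps3, Eif4a2 and Ncl had no other interval in the genome with the same length and the same MEL read count. For the 3 in Gas5, with 19 to 25 reads each, such intervals numbered 6 to 16, and where the authors placed a read that matched at several positions is not stated in the sources used here.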

How the data were processed

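The deposited files list the chromosome, start and end of 1 mapped read per line, with no header, strand, sequence or score, and the submitters' processing notes name the aligner Bowtie, version 0.12.7, for what the authors did. These values are positions and hold no other unit. For mapping options, trimming, multiply matching reads and the build the status is the same: not given in the sources used here. Reads on chromosome 7 reach 152523579, beyond the last GRCm38 annotation at 145324086, so GENCODE M21 served only for names, lengths, sequences and distances between snoRNA genes. Gene names of the windows came with their choice and could not be checked against annotation of the build.

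Left ends, counted from 1, were assigned to windows, and RPM were scaled to all reads of a library. 3 reads equal 3.64, 4.33 and 2.62 RPM in MEL, spleen and testis. RPM carry exact Poisson, shares exact Clopper-Pearson and folds exact conditional binomial 95% intervals. Reads have no molecular identifiers, so PCR copies count as reads. The site rule was tested on simulated reads. The windows, rules and lists were chosen with earlier results of these data known. By rule, values are given for the up to 4 sites with most MEL reads in each window and the most-read site in spleen and testis. Alternatives were distinct intervals, other lengths, equal depth, wider windows, no top interval or windows, and other site limits. Python 3.11.15, numpy 2.4.6, pandas 2.3.3, scipy 1.17.1 and matplotlib 3.10.9 were used.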

Additional observations from a re-analysis of the deposited data

How the results depend on the processing

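Over the 5 windows together, 21 of 39 values under an alternative left the interval of the reported value, or for counts changed by over 1.5 times, and 18 did not. Only the folds could reverse, as levels, shares and counts have no direction, and no fold did. For single windows MEL stayed above spleen in Rabggtb, Rps3, Eif4a2 and Ncl and below it in Gas5 under all 8 settings run. The MEL level, its fold over spleen and its fold over testis were 52494.9 RPM, 35.86 and 968.4 as reported. Counting each distinct interval once gave 2106 RPM, 2.0-fold and 22.87-fold, so most of the excess of MEL lay in many reads of the same intervals; the part of PCR copies in it was not tested. With reads of at least 18 nt they were 79865.9, 14.79 and 1461, and with reads of 24 to 32 nt 118449.4, 13.12 and 2150. Without the most-read interval the level was 37675.5 RPM and the fold over spleen 30.49, without the 5 most-read windows in the scaling they were 58008.3 and 33.62, and with windows widened by 5 kb the fold over spleen was 30.75. The share of MEL reads of 24 to 32 nt, 78.75% as reported, was 52.74% by distinct interval, 27.39% for 26 to 31 nt and 73.22% without the most-read interval. The share on the most-read sites, 78.69%, was 79.51% when left ends were joined within 10 nt and 42.56% by distinct interval. The share of reads that began in a MEL site, 45.01% in spleen and 80.65% in testis, fell to 15.1% and 51.61% at the most-read left end alone. The number of sites was 7 to 15 against 10, and of groups 8 in each setting. No paired analysis was possible because each group has 1 library. At these depths, testis with 2 to 9 reads in 4 of the windows gives no read length or end distribution.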

Other observations

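Within 5 kb to either side of the windows few reads were found, with 1 exception in spleen. To the right of the Ncl window, from 88250001 to 88255000 on chromosome 1, spleen had 123 reads (177.7 RPM), MEL 17 (20.64 RPM) and testis 1 (0.87 RPM). Of the spleen reads there 109 lay on 1 site, most often of 21 nt reads with the left end 88252883. Ncl was thus low in spleen in the window and higher than MEL beside it. To the right of the Eif4a2 window spleen had 37 reads and MEL 16, and to the left of the Rps3 window MEL had 26 and spleen 10. Around Rabggtb 0 reads were found on either side in any library.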
